A study of Mus musculus with 13 samples.

Results

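Sam68 knockout cerebellum was compared with wild-type cerebellum at postnatal day 1 (P1). The comparison holds 5 of the 13 RNA-seq libraries of the series, chosen by their genotype and age labels. They are 3 libraries of Sam68 knockout (KO) mice, numbered 13, 14 and 15, and 2 libraries of wild-type (WT) mice, numbered 8 and 9. Both groups are whole cerebella of mice on the C57BL/6 background, with no treatment given in the labels. The design text names 2 RNAs of null and 3 of wild-type cerebella, which can be read as numbers of ages or of samples, and groups follow the sample labels here. The labels name neither the knockout allele nor the number or sex of the animals, nor if each library is a different animal. The p-values therefore rest on the spread among libraries, which may be technical. The other 8 libraries (knockout at P10, n = 3, wild type at P10, n = 2, and wild type at P30, n = 3) helped estimate the spread, and the P10 groups served as a second comparison that shares no library with P1.

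Sam68, encoded by Khdrbs1, belongs to the STAR family of RNA-binding proteins. Its KH domain contacts U- and A-rich RNA such as UAAA and UUAA, and in the nucleus it changes which exons and 3′ ends are used. Its relatives SLM1 (Khdrbs2) and SLM2 (Khdrbs3) bind similar RNA and are mostly neuronal. In the newborn cerebellum granule cell precursors divide in the outer layer while Purkinje cells spread into a monolayer below them.

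A selection of exons with differences is shown first. Among them, the Sgce, Epc2 and both 39 nt Kif21a exons did not pass the splicing test at P1. All are given as the DNA letters of the sense strand, 5′ to 3′, with every TAAA or TTAA in capitals. They were read from GENCODE M21 transcripts (GRCm38) after matching exon and flanking intron lengths to the mm9 events, which succeeded for 10 of 13 exons sought, and each is coding over its full length. The first exon, of Khdrbs1, had no spliced read in any knockout library. The others had higher or lower inclusion in the knockout.
Khdrbs1, 147 nt, chr4:129725576-129725722 (minus strand): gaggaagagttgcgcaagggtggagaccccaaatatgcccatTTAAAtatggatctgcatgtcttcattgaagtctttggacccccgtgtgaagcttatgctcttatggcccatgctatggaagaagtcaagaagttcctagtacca
Kif21a, 108 nt, chr15:90952711-90952818 (minus strand): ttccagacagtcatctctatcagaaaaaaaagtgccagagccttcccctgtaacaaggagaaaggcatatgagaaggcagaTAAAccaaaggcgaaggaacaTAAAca
Kif21a, 39 nt, upstream, chr15:90976471-90976509 (minus strand): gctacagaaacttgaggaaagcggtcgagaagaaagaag
Kif21a, 39 nt, downstream, chr15:90949006-90949044 (minus strand): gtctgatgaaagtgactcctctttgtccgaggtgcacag
Stxbp5l, 171 nt, chr16:37142276-37142446 (minus strand): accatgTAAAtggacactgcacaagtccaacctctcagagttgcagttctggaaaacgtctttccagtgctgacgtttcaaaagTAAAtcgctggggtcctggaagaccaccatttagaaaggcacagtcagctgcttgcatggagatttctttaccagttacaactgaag
Sgce, 27 nt, chr6:4690469-4690495 (minus strand): ggaaaagagagacatgcaaaccccaga
Epc2, 192 nt, chr2:49532044-49532235 (plus strand): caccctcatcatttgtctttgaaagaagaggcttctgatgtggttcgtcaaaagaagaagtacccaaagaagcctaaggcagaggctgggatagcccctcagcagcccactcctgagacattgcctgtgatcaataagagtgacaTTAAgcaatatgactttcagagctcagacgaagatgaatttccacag
Zdhhc18, 103 nt, chr4:133612923-133613025 (minus strand): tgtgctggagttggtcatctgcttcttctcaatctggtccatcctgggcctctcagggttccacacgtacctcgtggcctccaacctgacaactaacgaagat
Of 165262 internal coding exons of this annotation, 35.7% hold TAAA or TTAA on the sense strand, where TTAAA counts as both. Among exons of exactly the same length the share was 33.2% for the Kif21a 108 nt exon, which holds 2 copies, 40.5% for Stxbp5l, which also holds 2, and 39.6% for Epc2, which holds 1. The Sgce, Zdhhc18 and both 39 nt Kif21a exons hold none. The exons of Eif2s3y (95 nt) and Zfr (192 nt) were also matched but are not printed. They hold 0 and 2 copies, and the share at their lengths was 31.9% and 39.6%. The flanking introns were not examined.

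**Figure D1:**
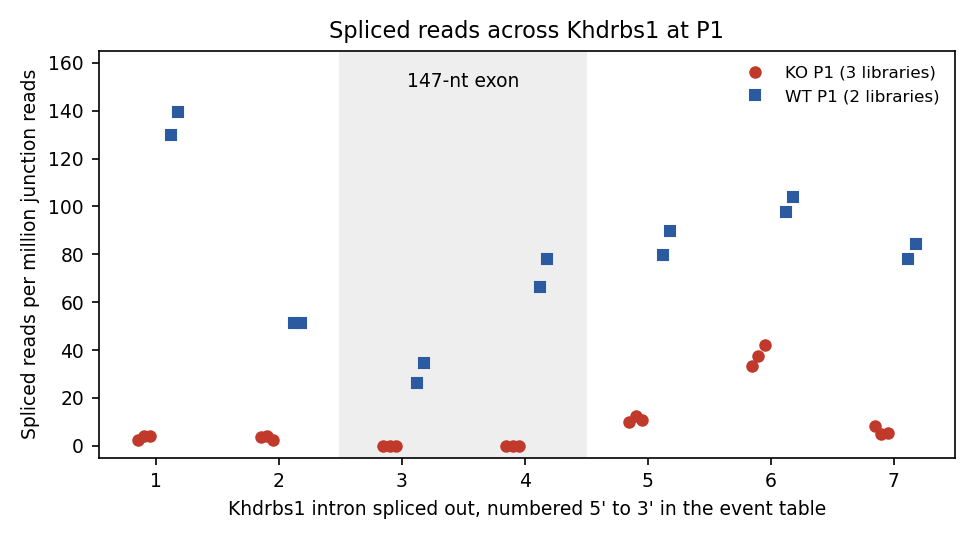
Spliced reads scaled to the library's junction reads, in CPM (vertical axis), for 7 introns of Khdrbs1 in 5′ to 3′ order (horizontal axis). Circles are the 3 KO libraries and squares the 2 WT libraries, and grey marks the introns on either side of the 147 nt exon, where every KO library is at 0.

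The targeted gene was checked first. Khdrbs1 had 5.42, 4.22 and 8.50 cRPKM (RPKM, the read density of a gene scaled to library depth, corrected for mappable length) in KO libraries 13, 14 and 15, against 56.45 and 74.40 cRPKM in WT libraries 8 and 9. The groups do not overlap, and the log2(cRPKM + 1) level fell by 3.27 (SE 0.31, limma adjusted p = 0.00112). The splicing table shows where in the gene the reads were lost. The 147 nt exon at chr4:129402820-129402966 (mm9, minus strand), which encodes part of the KH domain, had no read spliced into it in any KO library, against 206 and 374 in WT. No read in any KO library was spliced out of it, against 518 and 843 in WT. These are the deposited reads, corrected for mappability and so not whole.

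Spliced reads from the rest of the gene were still seen in the knockout, at unequal levels. The first intron of the gene was spliced out by 27.1, 42.6 and 40.5 reads in KO, against 1016 and 1504 in WT, and relative to all junction reads the KO mean was 2.74% of the WT mean. The fifth listed intron, 1 exon further downstream, reached 13.2% of the WT mean. The 545 nt intron after it had 363, 372 and 397 reads in KO and 765 and 1120 in WT, where the KO mean was 37.3% of the WT mean. The last listed intron had 89.0, 47.5 and 52.0 reads in KO and 611 and 911 in WT (7.58%). The share of the WT level thus differed along the gene, and the cRPKM value is taken over its whole transcript. At P10 the 147 nt exon again had no spliced read on either side in any KO library.

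Both relatives of Sam68 were measured in every library. Khdrbs2 had 32.70, 31.51 and 39.87 cRPKM in KO, against 14.24 and 13.84 in WT. All KO libraries lie above both WT libraries, and the log2 difference was 1.24 (SE 0.28), but over all genes it did not pass (adjusted p = 0.536). Its junction reads scaled to all junction reads of exon events (junction CPM), a measure that does not use cRPKM, were 135, 94.9 and 110 in KO and 59.97 and 50.12 in WT (log2 difference 1.02, SE 0.18, adjusted p = 0.0620). At P10, in other libraries, the log2 difference was 1.10 (SE 0.28, adjusted p = 0.884). Khdrbs3 had 31.08, 21.72 and 22.73 cRPKM in KO and 23.34 and 22.07 in WT, which overlap (log2 difference 0.13, SE 0.25, adjusted p = 0.921), and the sign turned to −0.03 without KO library 13. Neither gene passed the test.

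Splicing was given as percent spliced in (PSI), the share of reads that include an exon, intron or splice-site segment. An event was called when it differed by at least 10 points of PSI and its limma p on the log2 odds of inclusion, adjusted over all events, was below 0.05. Of 37260 events tested, 8 were called (0.0215% of those tested), 6 higher and 2 lower in KO. Another 7 passed the p alone, so that 15 did (0.0403%), and 1709 had an unadjusted p below 0.05 (4.59%). Of the 8 calls, 7 were cassette exons and 1 a 3′ splice site, and 0 were microexons (at most 27 nt) or retained introns. Below, 6 of the 8 are described with their values.

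Kif21a, a kinesin that slows microtubule growth at the cell cortex, included its 108 nt exon (chr15:90783142-90783249) at 95.45%, 94.40% and 94.95% in KO, against 77.28% and 65.57% in WT. Every KO library lies above both WT libraries, by 23.5 points on average (adjusted p = 0.0233). In wild type the exon was included less at later ages, with means of 71.4% at P1, 64.7% at P10 and 50.01% at P30. At P10 the KO mean was 93.0% ± 2.5 and the WT mean 64.7% ± 12.01 (SD, n = 3 and 2, adjusted p = 0.0225). Both 39 nt exons of the same gene were lower in KO. The one at chr15:90806902-90806940 stood at 27.50%, 25.85% and 21.36% in KO and 46.05% and 44.20% in WT (unadjusted p = 0.000226, adjusted p = 0.227). The one at chr15:90779437-90779475 stood at 7.55%, 10.65% and 4.51% in KO and 16.03% and 25.76% in WT (unadjusted p = 0.00475, adjusted p = 0.752). Neither was called, although in each the groups do not overlap, as was true of 19.1% of the 36318 events with values in all 5 libraries.

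Stxbp5l, which encodes the syntaxin-binding protein tomosyn-2, included its 171 nt exon (chr16:37142362-37142532) at 100%, 97.89% and 100% in KO, against 79.31% and 66.67% in WT (adjusted p = 0.0147). KO libraries 13 and 15 held 0 reads that skip the exon, among 55.0 and 38.0 reads in all. In wild type the means were 73.0% at P1, 77.4% at P10 and 97.5% at P30, so the KO libraries at P1 lie near the oldest wild-type group.

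1110028C15Rik, an uncharacterised gene in this annotation, included a 132 nt exon (chr1:66775018-66775149) at 95.80%, 95.24% and 81.82% in KO and 33.33% and 39.06% in WT. This was the largest rise among the calls, at 54.8 points (adjusted p = 0.0358). Eif2s3y, the Y-linked gene of a translation initiation factor subunit, included a 95 nt exon (chrY:349822-349916) at 87.36%, 86.13% and 87.32% in KO and 57.84% and 51.58% in WT (adjusted p = 0.0472). Its X-linked copy Eif2s3x is closely similar, and reads of the pair may not be fully separated. Reads that include the 95 nt exon were 453.4, 496.97 and 335.31 in KO and 93.12 and 111.41 in WT. Reads that skip the exon overlapped, at 65.6, 80.03 and 48.69 in KO and 67.88 and 104.59 in WT. The sex of the animals was not used here. If sex or reads of Eif2s3x play a part in this difference was not tested.

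Rcan3, a regulator of the phosphatase calcineurin, has a pair of 3′ splice sites 3 nt apart (chr4:134981129-134981360). The site that adds 3 nt was used at 17.18%, 16.73% and 15.50% in KO, against 86.02% and 85.00% in WT. This fall of 69.0 points was the largest among the calls (adjusted p = 0.00814). Zdhhc18, a palmitoyltransferase gene, included its 103 nt exon (chr4:133168838-133168940) at 78.88%, 81.89% and 87.07% in KO and at 100% in both WT libraries (adjusted p = 0.00814). WT held 221 and 371 reads for the exon and 0 reads that skip it, whereas 57.2, 41.8 and 31.8 reads skipped it in KO. Its length is not a multiple of 3.

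**Figure D2:**
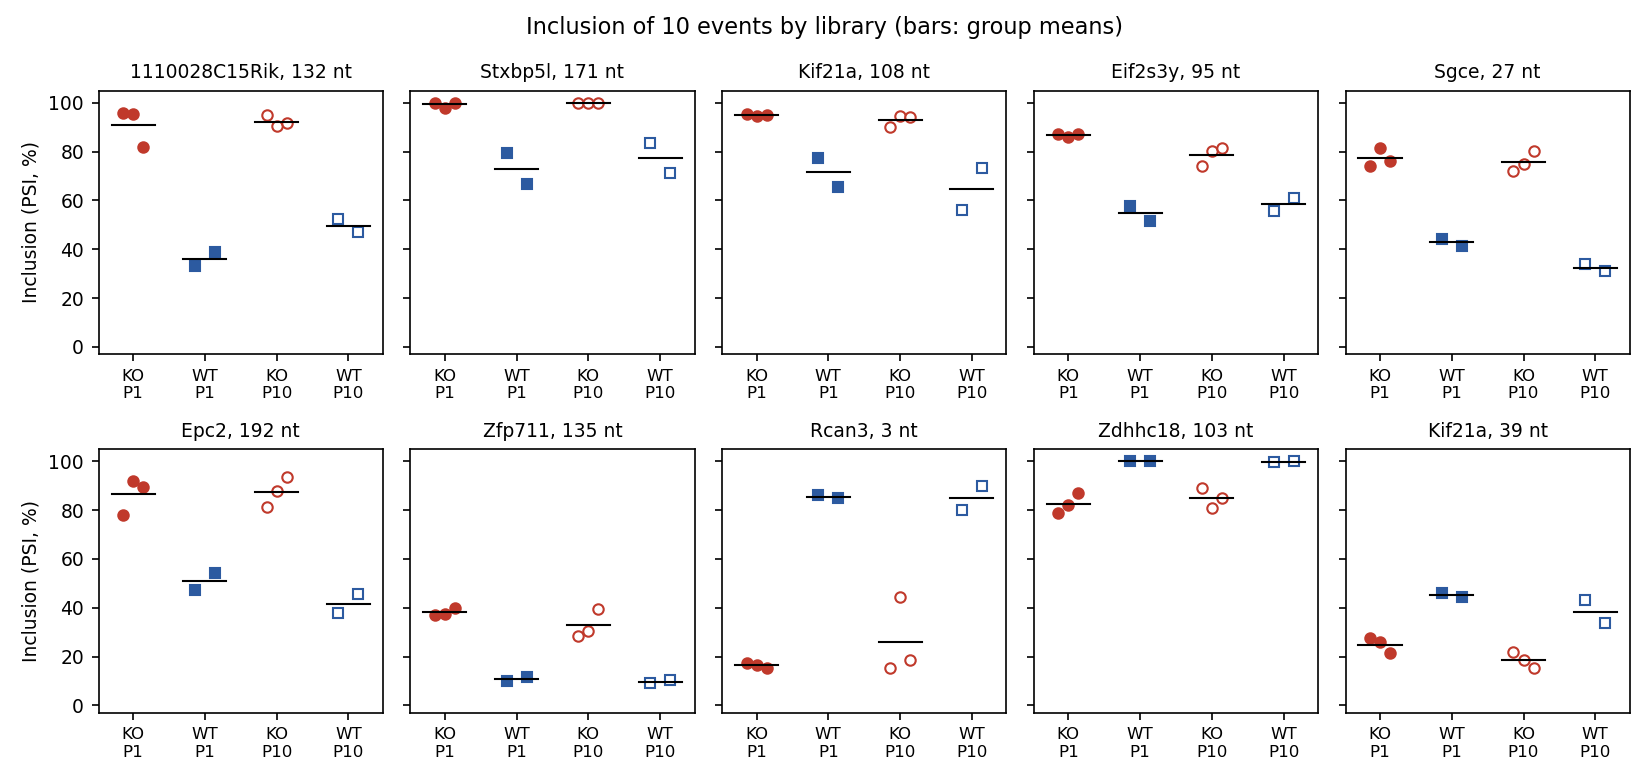
Inclusion (PSI, %) of 10 events in each library, for KO and WT at P1 (filled) and at P10 (open), with bars at group means. In all 10 panels the KO and WT libraries of P1 do not overlap, and the P10 libraries lie on the same sides. A KO library of Rcan3 stood at 44.4% at P10. The 10 events were chosen with their values known, so their equal sides are not a test. Events of Mog, Acin1 and Arhgap26, not shown, had the opposite sign at P10.

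The calls rest on few libraries. With each P1 library left out in turn, Rcan3 and Zdhhc18 kept their calls in 4 of 5 fits and lost them without WT library 8 (limma adjusted p = 0.0664 and 0.052). The exons of 1110028C15Rik and Stxbp5l kept theirs in 1 of 5, at adjusted p of up to 0.308 and 0.111. Those of Kif21a and Eif2s3y kept theirs in 0 of 5, at up to 0.168 and 0.217. The sign of all 6 was the same in every such fit. That was fixed in advance, because in each of the 6 the KO and WT libraries do not overlap. The count of calls ranged from 3 (without KO library 13) to 12 (without WT library 9), and the 4 calls made without WT library 8 share none with the 8. When the prior spread followed the mean odds or was one value for all events, 0 events were called by limma, and 1640 and 1630 had an unadjusted p below 0.05.

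Of the 7 events under 10 points, Neto2, an auxiliary subunit gene of kainate receptors, included a 178 nt exon (chr8:88178469-88178646) at 11.25%, 8.80% and 10.17% in KO and 1.83% and 2.79% in WT (adjusted p = 0.0147). At P10 it stood at 7.79% ± 0.68 in KO and 1.31% ± 0.11 in WT (SD, n = 3 and 2, adjusted p = 0.00796). Zfr, an RNA-binding zinc finger gene, stood at 96.80%, 97.12% and 97.55% in KO and 92.43% and 91.65% in WT for a 192 nt exon (adjusted p = 0.0358). A 146 nt exon of Cep120, a centriole gene, stood at 98.04%, 99.16% and 98.66% in KO and 89.12% and 90.56% in WT (adjusted p = 0.0156). Exons of Fam63b (143 nt), Arhgap26 (111 nt) and 2510006D16Rik (92 nt) differed by −5.57, 1.70 and −5.91 points, each with non-overlapping groups. No overlap was seen in 19.1% of events with values in all 5 libraries. Some of these differences rest on few reads. The Arhgap26 exon was skipped by 0 reads in every KO library and by 1.99 and 1.97 in WT. The Fam63b exon was skipped by 0 and 2.06 reads in WT, against 17.9, 13.9 and 8.02 in KO. An intron of the myelin gene Mog was read at 100% in all KO libraries and at 89.13% and 91.67% in WT, but at P10 at 5.93% in KO and 10.2% in WT. Reads that splice it out at P1 were 0 in every KO library and 4.73 and 4.79 in WT. Of these 7, Fam63b, Arhgap26 and Mog had an unadjusted p above 0.05 at P10.

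A list of 19 genes from the literature on Sam68 and splicing was read in the same fit, and 18 of them had 89 tested events. Of these events 12 (13.5%) had an unadjusted p below 0.05, against 4.59% of all events, and 2 were called, those of Kif21a and Stxbp5l. The genes were listed from work on Sam68 with results of these libraries known, so the share is not independent evidence. Sgce, which encodes epsilon-sarcoglycan, included its 27 nt microexon (chr6:4640469-4640495) at 74.24%, 81.40% and 76.03% in KO and 44.21% and 41.37% in WT. Its difference of 34.4 points had an unadjusted p of 0.000114 and did not pass over all events (adjusted p = 0.142). Epc2, a subunit gene of the NuA4 acetyltransferase complex, included a 192 nt exon (chr2:49387564-49387755) at 77.90%, 91.81% and 89.55% in KO and 47.40% and 54.26% in WT (adjusted p = 0.234). At P10, where the Sgce exon was called (adjusted p = 0.0381) and the Epc2 exon was not (adjusted p = 0.0786), the groups were again far apart, with 75.7% ± 4.0 in KO and 32.5% ± 2.0 in WT for Sgce, and 87.6% ± 6.2 in KO and 41.7% ± 5.5 in WT for Epc2 (SD, n = 3 and 2).

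Other listed genes differed less. A 66 nt exon of Kifap3, the kinesin-2 adaptor gene, stood at 13.38%, 14.81% and 12.61% in KO and 34.31% and 23.36% in WT (adjusted p = 0.415), and in wild type it was higher at later ages, at 28.8%, 36.0% and 78.9%. The 90 nt exon of the presynaptic adhesion gene Nrxn2 stood at 51.03%, 52.40% and 55.90% in KO and 34.72% and 46.05% in WT (adjusted p = 0.900). The P1 differences were −15.2 and 12.7 points, and −9.76 and 7.06 points without WT library 8. At P10 these 2 exons differed by −4.30 and 3.22 points.

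The rest of the strongest events were looked at by class. In-frame exons of 28 to 300 nt had an unadjusted p below 0.05 in 7.63% of 4468 events, exons of that size that shift the frame in 6.85% of 5722, and microexons in 6.93% of 548. For retained introns the share was 3.28% of 20963. Among microexons the smallest p after Sgce belonged to a 24 nt exon of Osbpl6, an oxysterol-binding protein gene, at 1.08%, 1.26% and 1.69% in KO and 9.19% and 9.34% in WT (adjusted p = 0.234). That exon was included by only 1.03 reads in each KO library and by 6.16 in each WT library. A 9 nt exon of Iffo1 followed, at 9.63%, 4.16% and 7.69% in KO and 0% and 2.5% in WT (adjusted p = 0.391). Among introns, a 675 nt intron of Acin1, a splicing-associated gene, was retained at 29.23%, 32.00% and 30.72% in KO and 4.35% and 2.02% in WT (adjusted p = 0.0697), but differed by −7.40 points at P10. A 135 nt exon of the X-linked zinc finger gene Zfp711, chosen after its values were seen, stood at 37.14%, 37.56% and 40% in KO and 9.82% and 11.72% in WT (adjusted p = 0.0670). A 5′ splice site of 2510006D16Rik that adds 92 nt had the largest rise among non-overlapping events, 61.3 points, at 80.00%, 83.02% and 65.71% in KO and 14.29% and 15.56% in WT (adjusted p = 0.0670), and lies −0.12 Mb from Khdrbs1. A 4147 nt intron of Zkscan2, a zinc finger gene, was retained at 67.90%, 58.02% and 65.38% in KO and 11.11% and 11.43% in WT (adjusted p = 0.122), with 60.8% ± 20.05 in KO and 15.6% ± 4.8 in WT at P10 (SD, n = 3 and 2). A splice site of the antioxidant enzyme gene Gpx4 that adds 7 nt had the second largest fall among non-overlapping events, 62.9 points. It stood at 16.43%, 31.94% and 49.32% in KO and 100% and 90.91% in WT (adjusted p = 0.429). That rests on few reads, with 2.46, 8.30 and 10.36 for the site in KO and 14 and 20 in WT. At P10 the groups overlapped, at 32.27%, 91.67% and 36.99% in KO and 71.88% and 92.83% in WT.

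**Figure D3:**
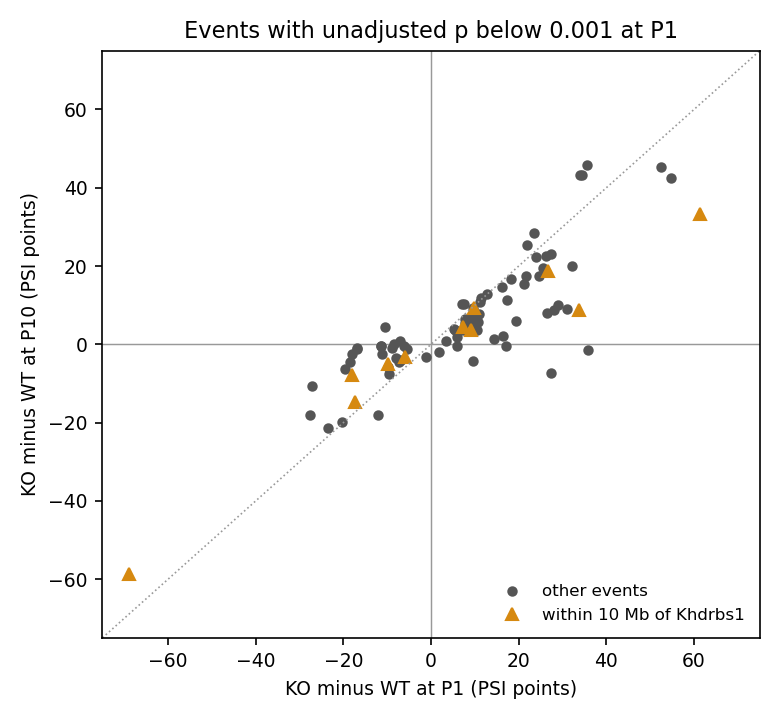
KO minus WT difference in PSI points at P1 (horizontal axis) against P10 (vertical axis) for the 87 events with an unadjusted p below 0.001 at P1 that were tested at both ages. Of them, 78 lie in the quadrants of equal sign, and triangles mark events within 10 Mb of Khdrbs1.

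The P10 libraries gave a reading of the same events in other samples. All 8 calls had the same sign at P10, 7 had an unadjusted p below 0.05 there, and 5 were called at P10, where 12 of 38894 events were called in all (0.0309%) and 4.47% had an unadjusted p below 0.05. Of the 89 events with an unadjusted p below 0.001 at P1 (0.239%), 87 were tested at P10. Of these, 78 had the same sign (89.7%, against 54.5% of all events tested at both ages) and 44 had an unadjusted p below 0.05 at P10 (50.6%, against 4.40%). The fit shares one estimate of spread per event between the ages, so events of low spread have smaller p at both, but the signs come from separate libraries. Leaving out WT library 8 or WT library 9 lowered the share of equal signs to 72.7% and 65.9%, among 66 and 129 events. The share with an unadjusted p below 0.05 at P10 was then 36.4% and 28.7%. In the test of the difference between ages, 2 of 14063 genes passed (0.0142%), Gm10479 and Hist1h2ag. Both are listed at 0 in every P10 library, so that test repeats their P1 difference and says nothing of age. Of 35785 events 0 passed with limma, and 933 had an unadjusted p below 0.05 (2.61%).

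**Figure D4:**
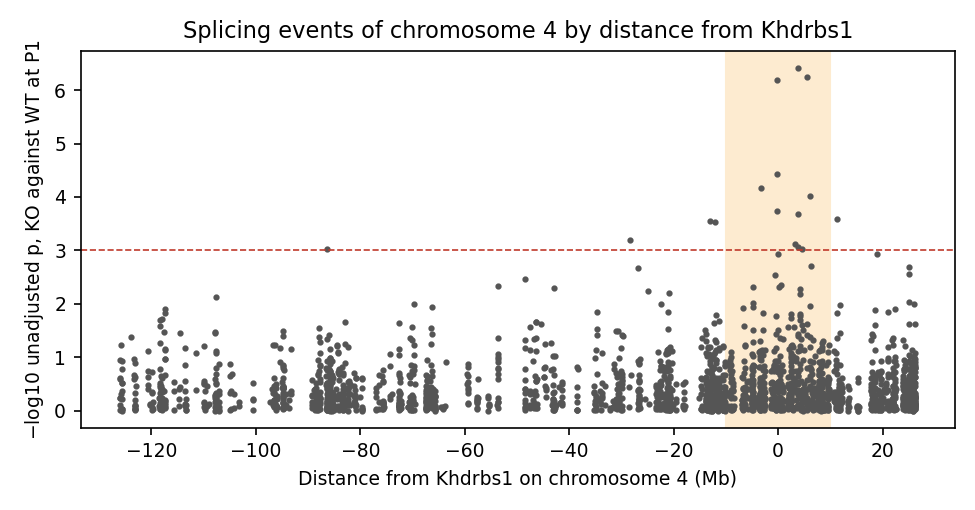
Each point is a splicing event on chromosome 4, by distance from Khdrbs1 in Mb (horizontal axis) and −log10 of its unadjusted p for KO against WT at P1 (vertical axis). The dashed line marks the threshold of 0.001 and the shaded band 10 Mb on either side, which holds 11 of the points above the line, among them the 3 smallest p of all events.

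Events near Khdrbs1 on chromosome 4 had small p more often. Within 10 Mb of the 147 nt exon 11 of 619 events had an unadjusted p below 0.001 (1.78%), against 78 of 36641 elsewhere (0.213%). Chromosome 4 as a whole held 16 among 2402 events (0.666%), and chromosome X 8 among 1056 (0.758%). The 3 smallest p of all events were in Zdhhc18, Rcan3 and 2510006D16Rik. These lay 3.77 Mb, 5.58 Mb and −0.12 Mb from the 147 nt exon (positive towards higher coordinates), and Rcan3 and Zdhhc18 were 2 of the 8 calls. Both Zdhhc18 and 2510006D16Rik recur among the 11 events of the window, and events of the same gene are not independent. A 93 nt exon of Hdac1, named for its position after its values were seen, stood at 100% in all KO libraries and at 75% and 57.58% in WT (adjusted p = 0.210). Eif2c1, which encodes Argonaute-1 and lies at −3.28 Mb, used a 57 nt splice-site extension at 87.63%, 92.69% and 88.65% in KO and 99.55% and 99.53% in WT (adjusted p = 0.102). At P10, 4 of 600 events in the window had an unadjusted p below 0.001 (0.667%), against 0.186% elsewhere. With the threshold at 0.05, the window held 57 of 600 at P10 (9.50%, against 4.34% elsewhere). The same threshold gave 50 of 619 at P1 (8.08%, against 4.53%). The window held 1.30% to 1.64% of events below 0.001 with any KO library left out, 1.39% without WT library 8 and 0.794% without WT library 9. Elsewhere the share was 0.148% to 0.21% with any KO library left out, 0.147% without WT library 8 and 0.338% without WT library 9. Loss of Sam68 and sequence linked to the targeted allele cannot be told apart for events in this window.

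Few genes passed the expression test. Of 14063 genes tested, 5 passed (0.0356%), 1 higher and 4 lower in KO, and 953 had an unadjusted p below 0.05 (6.78%). At P10 only Khdrbs1 passed (0.00711%). Tbata, a gene best known in thymus and testis, had 7.84, 7.43 and 7.17 cRPKM in KO and 1.28 and 1.18 in WT (log2 difference 1.93, SE 0.23, adjusted p = 0.00723, and 0.0570 without WT library 8). Its junction CPM values overlapped, at 15.7, 17.6 and 11.5 in KO and 7.21 and 16.2 in WT. The other 3, besides Khdrbs1, were Dusp22, Hist1h2ag and Gm10479, each listed at 0 in all KO libraries. Dusp22, a phosphatase gene, had 7.93 and 6.88 cRPKM in WT and lost its call without WT library 8 (limma adjusted p = 0.0723), and its junction CPM was 14.3, 10.7 and 14.8 in KO and 27.7 and 14.3 in WT. The histone gene Hist1h2ag had 10.03 and 13.92 cRPKM in WT and Gm10479 29.60 and 82.20, with junction CPM for Gm10479 of 29.1, 20.4 and 23.5 in KO and 29.5 and 21.4 in WT. Hist1h2ag was listed at 0 in every library outside WT at P1, so it entered the test only through the group where it was high. Its p also rests on a spread lowered by groups listed wholly at 0. A gene listed at 0 can still have junction reads, as the KO values of Dusp22 and Gm10479 show. The ribosomal protein gene Rpl11 was also listed at 0 in KO library 13 with a junction CPM of 22.9, but those reads may come from near-identical copies.

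By junction reads per gene 3 of 11334 genes passed (0.0265%), which were Khdrbs1 and 2 others chosen here after their values were seen. Hdac1, a histone deacetylase gene at −0.20 Mb from Khdrbs1, had 8.38, 9.51 and 8.37 junction CPM in KO and 43.8 and 54.4 in WT (adjusted p = 1.28e-05), but by cRPKM 57.58, 16.37 and 126.37 in KO and 17.55 and 34.80 in WT. Rpl11 had 22.931, 16.002 and 15.152 junction CPM in KO and 3.04 and 3.18 in WT (adjusted p = 0.00387), while its cRPKM values overlapped. Hdac1 thus had opposite signs in the 2 measures, and near-identical copies of ribosomal protein genes make Rpl11 uncertain.

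Among genes that did not pass, the largest rises with no overlap included Mndal, an interferon-inducible gene, at 15.29, 7.25 and 27.97 cRPKM in KO and 3.33 and 1.16 in WT (adjusted p = 0.536), and Ctsk, the cathepsin K protease gene, at 9.97, 9.44 and 7.29 in KO and 2.17 and 1.81 in WT (adjusted p = 0.685). Mecr, a mitochondrial fatty acid synthesis gene 2.01 Mb from Khdrbs1, had 26.61, 22.07 and 40.55 in KO and 12.55 and 7.37 in WT (adjusted p = 0.482), and differed by 1.24 at P10. The largest falls included Rcan3 itself, at 8.46, 10.03 and 8.25 cRPKM in KO and 32.66 and 24.72 in WT (log2 difference −1.57, SE 0.25, adjusted p = 0.0800, and −0.47 by junction reads). Cox7c, a cytochrome oxidase subunit gene, had 66.81, 55.40 and 61.09 cRPKM in KO and 225.38 and 146.37 in WT (adjusted p = 0.194). Car10, a carbonic anhydrase-related gene, had 11.47, 8.99 and 3.23 cRPKM in KO and 25.92 and 19.73 in WT (log2 difference −1.55). Pcdh11x, a protocadherin gene, had 5.78, 3.59 and 2.64 in KO and 19.17 and 8.73 in WT (log2 difference −1.53, and −1.01 without WT library 8). Slc6a5, the glycine transporter gene of glycinergic neurons, had 6.15, 3.11 and 1.5 in KO and 16.95 and 6.81 in WT (log2 difference −1.50, and −0.90 without WT library 8). In each of these 3 genes WT library 9 lies nearer than WT library 8 to the KO libraries, and none of the 3 passed. KO libraries lay all above or all below WT libraries in 2601 genes (18.5%), so a gap of this kind alone is common.

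**Figure D5:**
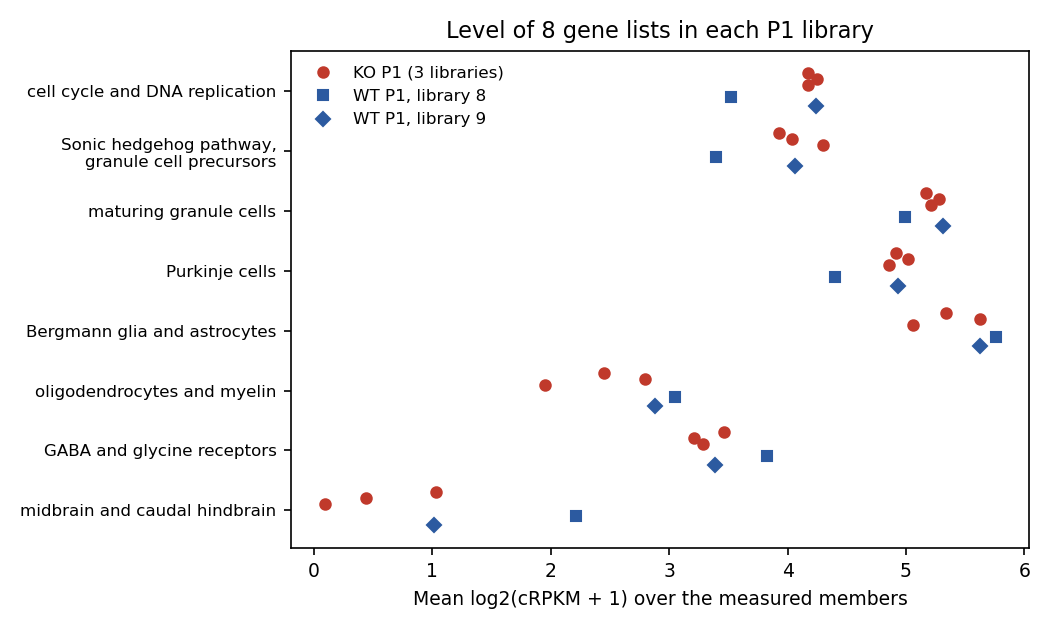
Mean log2(cRPKM + 1) over the measured members of 8 gene lists (horizontal axis), with 1 circle per KO library and a square and a diamond for WT libraries 8 and 9. WT library 8 stands apart in the cell cycle, Purkinje and hindbrain lists, whereas WT library 9 lies among or near the KO libraries.

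A further reading used 30 lists of genes for cell types and functions, the STAR family among them. Outside Khdrbs1 and Hist1h2ag, 0 members of any list passed in either direction, so no list is described as changed, and the median log2 difference over all genes was −0.04. The cerebellar lists were present in every library. Over all genes tested, 7.89% lay above both WT libraries in every KO library and 10.6% lay below both. Of 44 cell cycle genes 8 lay above in this way (18.2%) and 0 below (median 0.37, and 0.41 by junction reads). The list mean (log2(cRPKM + 1)) was 4.17, 4.25 and 4.17 in KO and 3.52 and 4.24 in WT, so WT library 8 alone was low. Tk1, the S-phase thymidine kinase gene, had 25.31, 23.99 and 23.15 cRPKM in KO and 8.26 and 17.85 in WT (adjusted p = 0.714). The Sonic hedgehog and granule precursor list (23 genes, median 0.50) stood at 3.93, 4.04 and 4.30 in KO and 3.4 and 4.06 in WT.

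Among Purkinje cell genes WT library 8 was again lowest. Of 23 measured 5 lay above WT in all KO libraries (21.7%, against 7.89% of all genes) and 0 below, with list means of 4.92, 5.02 and 4.86 in KO and 4.40 and 4.93 in WT. Calb1, the calbindin gene that marks these cells, had 58.86, 70.38 and 57.58 cRPKM in KO and 19.81 and 52.33 in WT (log2 difference 0.92, adjusted p = 0.704). Without WT library 8 that difference was 0.24, and without WT library 9 it was 1.60 and passed (adjusted p = 0.00341). Among Bergmann glia and astrocyte genes 7 of 23 lay below WT in all KO libraries (30.4%, against 10.6% of all genes) and 1 above (median −0.48). The list mean was 5.34, 5.63 and 5.06 in KO and 5.76 and 5.63 in WT, so KO library 14 was level with WT library 9. Slc6a11, a GABA transporter gene of glia, had 68.26, 56.26 and 39.01 cRPKM in KO and 149.95 and 91.75 in WT (adjusted p = 0.655). Among oligodendrocyte genes 9 of 22 lay below (40.9%) and 3 above (median −0.52). Their list mean was 2.45, 2.80 and 1.95 in KO and 3.05 and 2.88 in WT, so KO library 14 was close to WT library 9. Gpr17, a receptor gene of oligodendrocyte precursors, had 3.97, 4.56 and 2.07 cRPKM in KO and 13.19 and 8.90 in WT (adjusted p = 0.685).

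Lists of synaptic and channel genes were read in the same way. Of 35 glutamate receptor and scaffold genes 10 lay below WT in all KO libraries and 0 above, against 10.6% below and 7.89% above over all genes. Of 33 voltage-gated channel genes 10 lay below and 0 above, and of 29 neurexin and partner genes 10 lay below and 2 above. Of 39 presynaptic release and vesicle genes 4 lay below (10.3%) and 2 above. The mean of the neurexin list was 3.92, 3.71 and 3.9 in KO and 4.22 and 3.98 in WT, so WT library 9 lies close to KO libraries 13 and 15. Grm7, a metabotropic glutamate receptor gene, had 6.35, 7.52 and 3.87 cRPKM in KO and 19.12 and 11.83 in WT (adjusted p = 0.704). Nlgn1, a postsynaptic partner gene of neurexins, had 11.27, 10.68 and 7.27 cRPKM in KO and 21.78 and 15.02 in WT (adjusted p = 0.704). Of 75 oxidative phosphorylation genes 21 lay below and 1 above (median −0.21, and −0.15 by junction reads). The median of cytosolic ribosomal protein genes was −0.20 by cRPKM and 0.13 by junction reads, so its sign depended on the measure. None of these genes passed in the expression test.

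Markers of the neighbouring brainstem were read as well, and no member passed. Of 31 midbrain and caudal hindbrain genes 17 were measured, of which 7 lay below WT in all KO libraries (41.2%, against 10.6% of all genes) and 0 above (median −1.25, and −1.33 over 9 genes by junction reads). The list mean was 1.03, 0.443 and 0.0891 in KO and 2.21 and 1.01 in WT, so KO library 13 and WT library 9 were close. The lowest 5% of values above 0 reached up to 1.16, 0.42 and 2.72 cRPKM in KO and 0.385 and 0.49 in WT. Low genes are thus read less well in KO libraries 13 and 15, and the part of this was not tested. The hindbrain segment gene Hoxa2 had 1.65, 0.39 and 0 cRPKM in KO and 5.04 and 3.00 in WT (adjusted p = 0.655). GABA and glycine receptor genes, which that tissue also uses, had a median of −0.29 with 5 of 22 below (22.7%, against 10.6% of all genes) and 1 above. Their part in the differences of other genes was not tested. In bulk tissue fewer cells of a type and less RNA per cell cannot be told apart. Red blood cell genes were lowest in KO library 13 (2.77, against 5.36 and 4.02 in the other KO libraries and 6.01 and 5.98 in WT), and choroid plexus and meningeal genes were highest in KO library 14, at 2.40 and 4.05.

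The libraries also differed in depth and in the share of genes listed. Junction reads over exon events were 10.94 M, 9.93 M and 9.39 M in KO and 7.83 M and 10.78 M in WT (M, mega). Genes listed at 0 numbered 8800, 7046 and 11033 in KO and 6923 and 7410 in WT, so KO library 15 has the sparsest expression table although its junction reads were close in number to the others. Its log2 expression correlated at 0.817 to 0.834 with the other P1 libraries, against 0.904 to 0.950 among those. By junction reads WT library 8 stood apart, at 0.972 to 0.981, against 0.989 to 0.991 among the other 4. These correlations run across genes, which are not independent. Without WT library 9 the number of genes that passed was 42, without KO library 14 it was 54, and it was 5 to 8 without any other P1 library.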

How the data were processed

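Libraries from total RNA of cerebella were made with a modified Illumina TruSeq Stranded mRNA kit, per the labels' protocols. FastQC, Trimmomatic and mm9 are named in the submitters' processing notes, with the aligner and quantifier not given in the sources used here. The authors deposited a table of percent spliced in (PSI, in percent) for each event with the corrected reads for and against inclusion, which are not whole numbers, and a table of cRPKM, an RPKM value corrected for mappable length, for each gene. Raw counts were not used here, so cRPKM depth is unknown.

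From these, limma 3.58.1 (R 4.3.3) was fitted over all 13 libraries in 5 groups, without batch terms, with Benjamini-Hochberg adjustment over all features. Expression used log2(cRPKM + 1) for genes with a group mean of at least 1, a scale that understates changes of low genes. Splicing used log2 odds of inclusion with 0.5 reads added to each side and a prior spread following read number. Values rested on at least 10 reads a library. Events needed values in at least 4 of the 13 libraries and in 2 of each compared group. Their mean PSI over all libraries with a value had to be 5 to 95. An event can thus lie outside that range at P1, as the Arhgap26 exon did, at 100% in KO and 98.3% in WT. Grouped alternative sites counted once. Junction reads per gene served as a second expression measure.

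Named items are the called genes and events, those with the smallest p in each gene list and event class, one event per gene studied earlier, and the 8 largest non-overlapping rises and falls. Predicted genes may be left out, and a few events within the rule go unnamed here. The members and lists were chosen with earlier results of these data known.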

Additional observations from a re-analysis of the deposited data

Results flagged for a closer look

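For 2 genes the knockout difference at P1 and that at P10 differed in the limma test of the difference itself (2 of 14063 genes, 0.0142%). Gm10479 was listed at 0 in all KO libraries at P1, against 29.60 and 82.20 cRPKM in WT, and at 0 in every P10 library, and its difference between ages was −5.66 on the log2(cRPKM + 1) scale (SE 0.59, adjusted p = 0.00853). Hist1h2ag was listed at 0 in all KO libraries at P1, against 10.03 and 13.92 cRPKM in WT, and at 0 in every P10 library, with a difference between ages of −3.68 (SE 0.43, adjusted p = 0.0134). Since both genes are at 0 in every P10 library, these values repeat their P1 differences and show nothing about age. No fold is given, because a value listed at 0 has no count behind it, and the junction reads of Gm10479 overlapped between KO and WT at P1.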

How the results depend on the processing

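The 5 genes that passed in expression became 16 without a filter on low values and 3 by junction reads per gene, 1 of them shared, and 5 to 54 with one P1 library left out. With only the P1 libraries in the fit 4 passed, none of them among the 5, and Khdrbs1 kept its difference of −3.27 but not its call (adjusted p = 0.0811). The 8 splicing calls became 15 with 0.1 reads added to each side, 5 with a mean PSI of 1 to 99, 15 with no minimum change, 13 weighted by read numbers, 5 with only the P1 libraries in the fit, and 3 to 12 with one P1 library left out. They became 0 with a prior following the mean log odds and 0 with one prior spread for all events, both chosen after seeing the data. The sign turned for Hdac1 (−2.36) and Rpl11 (2.19) by junction reads, and for Khdrbs3 and Rpl11 without KO library 13, where values with one library left out ran from −0.029 to 0.22 and from −2.59 to 0.12. The cause of these moves was not tested. No paired analysis was possible because the labels give no pairing of KO and WT libraries at P1. Precision is limited by 3 KO and 2 WT libraries, and for cRPKM by unknown depth.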
